A study of Mus musculus with 24 samples.

Results

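The genes described here encode adhesion and homing receptors of blood cells: *Selplg* (PSGL-1), *Cd44*, the integrin α subunits *Itga4*, *Itga6*, *Itgae* and *Itgal*, and the integrin β subunits *Itgb1*, *Itgb2* and *Itgb7*. They were chosen by symbol, and each of the 9 symbols matched 1 line of the 55487 genes in each of the 2 tables of RNA values, 1 table per experiment. All 9 passed the filter on low values (1 CPM in 3 libraries) in both experiments. *Itgae* passed it only through the group where it is high, sgControl Phase 1 cells in experiment 1 and sgCTCF in experiment 2, and 2 of the 9 remaining libraries of each experiment reached 1 CPM. Its differences from those groups are therefore a description, and counts are also given for the other 8 genes.

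The RNA was measured by QuantSeq, which counts 1 tag near the 3′ end of each mRNA, in 24 libraries of Cas9-LPs, a lymphoid progenitor (LP) culture from mouse fetal liver that is deficient for *Ebf1* and makes Cas9 from the *Rosa26* locus. All 8 groups share that genotype, the cytokines SCF, Flt3L and IL-7, and a retroviral sgRNA vector marked with human NGFR, and hNGFR+CD45+ cells were sorted at day 5 after transduction. Experiment 1 held LPs on OP9 stroma and Phase 1 cells on OP9-DLL4, stroma that presents a Notch ligand, each with sgControl (against luciferase) or sgCbfb. Experiment 2 held LPs on OP9 with sgControl, sgCbfb, sgCTCF or sgMed12, and every group of both experiments had 3 libraries. *Cbfb* encodes CBFβ, the partner that RUNX proteins share, *Ctcf* an insulator protein and *Med12* a Mediator subunit. The groups are transduced cultures of engineered Cas9-LPs and not thymocytes, and in bulk libraries fewer cells of a type and less RNA per cell cannot be told apart.

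Integrins are surface dimers of an α and a β chain that bind matrix or cells once they are switched on from inside. α4 pairs with β1 to bind VCAM-1 and fibronectin or with β7 to bind MAdCAM-1, αE (CD103) pairs with β7 to bind E-cadherin, αL pairs with β2 as LFA-1 to bind ICAMs, and α6 chains bind laminins. CD44 binds hyaluronan and is high on the earliest thymic progenitors, and PSGL-1 is the selectin ligand that progenitors use to settle the thymus.

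In GENCODE M21 on GRCm38, *Selplg* lies at chr5:113818536-113832644 (minus strand), *Cd44* at chr2:102811141-102901665 (minus), *Itga4* at chr2:79255426-79333123 (plus) and *Itga6* at chr2:71745616-71858416 (plus). *Itgb7* lies at chr15:102215995-102231944 (minus), *Itgae* at chr11:73090583-73147446 (plus), *Itgal* at chr7:127296260-127335138 (plus), *Itgb1* at chr8:128685654-128733200 (plus) and *Itgb2* at chr10:77530252-77565708 (plus). *Itga4* alone among them shares exon bases with another gene, *Cerkl* on the opposite strand, and whether the authors' counting used strand is not given in the sources used here. *Cerkl* held 0 to 9 reads per library in experiment 1 and 0 to 3 in experiment 2, against 466 to 1889 and 735 to 2165 for *Itga4*.

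Promoters are shown for *Cd44* and *Itgb7*, whose RNA moved with sgCbfb, and for *Itga4*, whose RNA moved with stage, because RUNX proteins bind DNA at short TGTGGT-type motifs. The windows run from 250 bases before to 50 bases after the start in RefSeq on GRCm38.p6, where 4 of the 9 genes matched an entry (*Itgb1* is the fourth). TGTGGT and TGCGGT were searched on both strands, so also as ACCACA and ACCGCA, and the matched letters stand in capitals. The *Cd44* window is chr2:102901616-102901915 (minus strand), the *Itga4* window chr2:79255176-79255475 (plus strand) and the *Itgb7* window chr15:102231886-102232185 (minus strand).
Cd44: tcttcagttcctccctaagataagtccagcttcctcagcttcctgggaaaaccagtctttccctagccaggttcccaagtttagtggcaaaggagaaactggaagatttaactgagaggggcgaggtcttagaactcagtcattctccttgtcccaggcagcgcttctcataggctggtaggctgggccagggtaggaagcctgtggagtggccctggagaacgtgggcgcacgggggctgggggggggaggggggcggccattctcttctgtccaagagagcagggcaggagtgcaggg
Itga4: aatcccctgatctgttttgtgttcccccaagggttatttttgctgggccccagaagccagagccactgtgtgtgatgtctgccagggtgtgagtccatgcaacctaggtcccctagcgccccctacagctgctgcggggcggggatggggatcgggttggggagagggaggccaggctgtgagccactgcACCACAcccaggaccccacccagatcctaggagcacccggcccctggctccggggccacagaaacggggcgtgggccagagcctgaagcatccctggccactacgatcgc
Itgb7: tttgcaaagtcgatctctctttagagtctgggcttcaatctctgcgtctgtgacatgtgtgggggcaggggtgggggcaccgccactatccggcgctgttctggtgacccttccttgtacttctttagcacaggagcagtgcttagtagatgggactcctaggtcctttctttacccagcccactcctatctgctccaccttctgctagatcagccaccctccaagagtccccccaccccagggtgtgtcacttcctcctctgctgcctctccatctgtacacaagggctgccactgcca

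The *Itga4* window held 1 match, ACCACA, 60 bases before the start, and it overlapped no other match. The *Cd44*, *Itgb7* and *Itgb1* windows held none of these letters, and 22.4% of all 32851 promoter entries held at least 1 match. A match is a description of letters and not a binding site.

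Depth was 1363263 to 1743319 reads on genes per library in experiment 1 and 3354483 to 4326782 in experiment 2, so that 3 reads amounted to 1.72 to 2.20 CPM (reads per 1000000 reads on genes) and 0.693 to 0.894 CPM. *Cbfb* RNA in LPs was 86.5 ± 9.30 CPM (SD, n = 3) with sgControl and 40.2 ± 5.18 with sgCbfb in experiment 1, and 114 ± 8.37 and 48.4 ± 6.93 in experiment 2, both past the limma threshold. In Phase 1 it was 66.5 ± 19.2 and 53.9 ± 9.69 CPM (log2 fold change −0.27 ± 0.22, limma adjusted P = 0.59). In LPs of experiment 2 *Ctcf* was 391 ± 30.7 CPM with sgControl and 306 ± 30.0 with sgCTCF. *Med12* was 5.14 ± 1.26 CPM with sgControl and 7.01 ± 3.38 with sgMed12 in the same experiment. The guides' cut sites were not compared with the 3′ tags here, and an edited gene can still be transcribed, so these levels are only a partial check of the labels. The lymphoid progenitor markers (*Ptprc*, *Il7r*, *Flt3*, *Kit* and 4 others) summed to 1732 to 3245 CPM with none at 3 reads or fewer across a group, and 6 to 11 of 12 stroma markers were at that floor in every group. Phase 1 sgControl replicate 3 stood apart from its group (mean r of 0.92 to the other 2 libraries, against 0.93 and 0.94 for those), and it is named below where it decides a value.

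**Figure D1:**
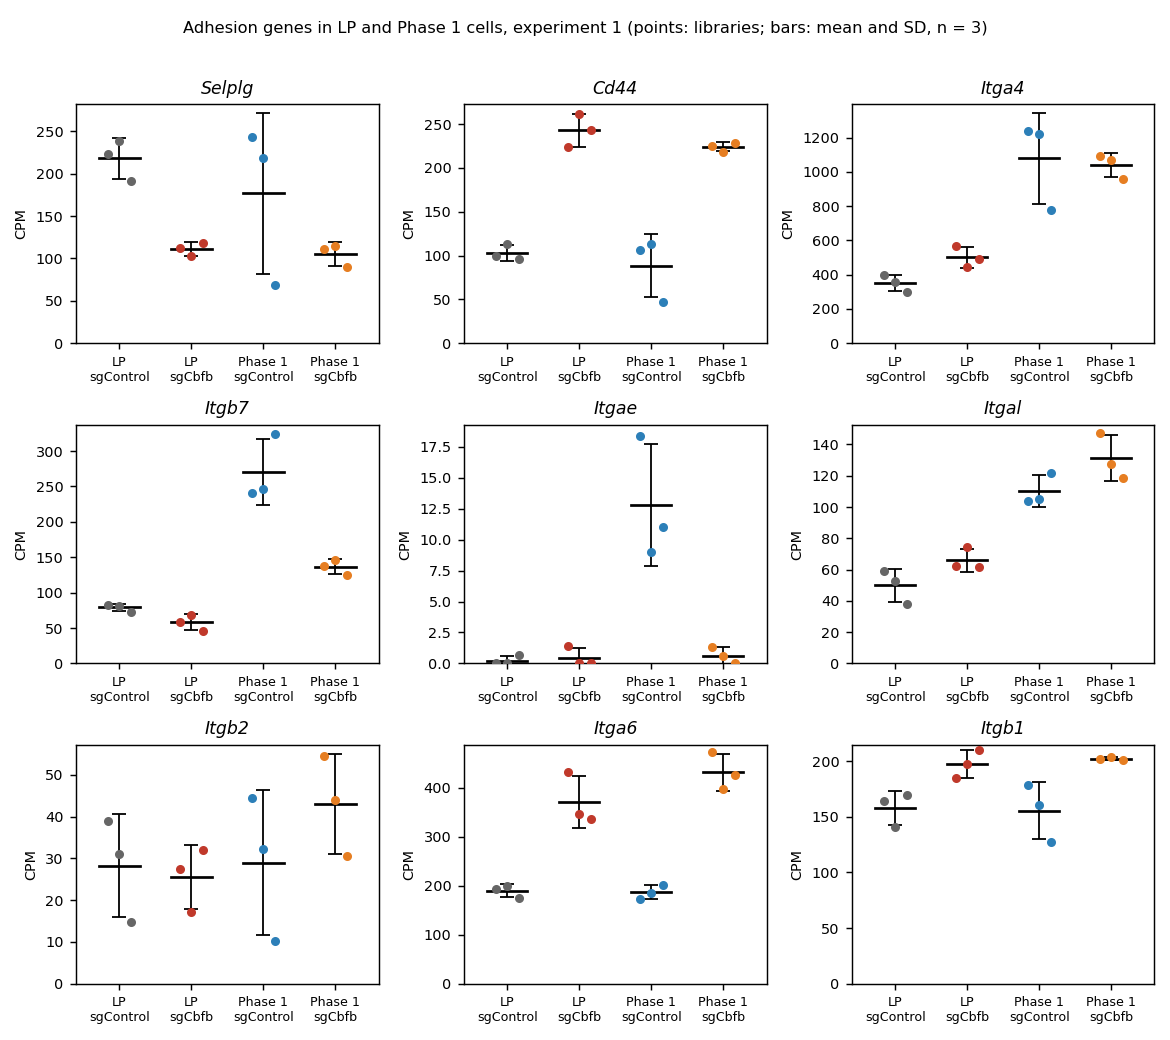
CPM (vertical axes, linear from 0) of the 9 genes in each library of experiment 1, with points for libraries and bars for the mean and SD of 3 libraries. *Cd44* and *Itga6* were higher in both sgCbfb groups, *Itga4*, *Itgb7* and *Itgal* in both Phase 1 groups, and *Itgae* reached 9.03 to 18.4 CPM in sgControl Phase 1 cells and 1.41 CPM or less elsewhere.

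The first comparison asked which adhesion genes depend on CBFβ in LPs, before any Notch signal, and it was made in both experiments. *Cd44* and *Itga6* rose in both, *Cd44* by 2.36-fold and 2.89-fold and *Itga6* by 1.96-fold and 1.94-fold (ratios of mean CPM). *Selplg* lay at 0.509 and 0.446 of sgControl and passed the test in experiment 2. *Itgal* and *Itga4* rose in experiment 2 by 1.63-fold and 1.36-fold. Fits were limma on log2(CPM + 1) over all genes of an experiment with Benjamini-Hochberg adjustment, errors on log2 fold changes are standard errors, and a gene passed at an adjusted P under 0.05.

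Of the 9 genes, 2 passed in experiment 1, where 2.85% of 13239 genes tested did, and 5 passed in experiment 2, where 12.5% of 13177 did. With the study's added thresholds (an absolute log2 ratio of means over 1 and a mean over 10 CPM), *Cd44* was called in experiment 1 (1.69% of genes tested) and *Cd44* and *Selplg* in experiment 2 (4.33%). The median log2 fold change of the 9 was 0.32 and 0.19, against 0.00 and −0.01 over all genes tested. The experiments were separate tables and were never fitted together.

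*Cd44* stood at 99.7, 113 and 96.3 CPM in sgControl LPs and at 224, 262 and 243 CPM in sgCbfb LPs of experiment 1. In experiment 2 it stood at 121, 118 and 117 CPM with sgControl and at 341, 362 and 324 CPM with sgCbfb. Every sgCbfb library held more *Cd44* RNA than every sgControl library of its experiment. The log2 fold change was 1.23 ± 0.22 (limma adjusted P = 0.0014) in experiment 1 and 1.52 ± 0.13 (1.5e-09) in experiment 2.

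*Selplg*, the selectin ligand, stood at 224, 239 and 191 CPM in sgControl and 112, 103 and 118 CPM in sgCbfb LPs of experiment 1. The corresponding libraries of experiment 2 held 193, 199 and 184 CPM and 85.9, 94.9 and 76.1 CPM. The groups were apart in both experiments. The log2 fold change was −1.16 ± 0.10 (limma adjusted P = 5.3e-09) in experiment 2 and −0.96 ± 0.29 (0.089) in experiment 1, short of the threshold. The shared fit of experiment 1 takes its error for *Selplg* from all 4 groups, and with Phase 1 sgControl replicate 3 left out the same −0.96 had an adjusted P of 4.9e-07. With the 2 LP groups fitted alone the adjusted P was 1.1e-06. *Selplg* passed under 5 of 22 alternative settings, with limma adjusted P up to 0.45 under the others.

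*Itga6*, the laminin-binding chain, held 194, 200.0 and 175 CPM in sgControl and 432, 346 and 335 CPM in sgCbfb LPs of experiment 1. In experiment 2 it held 114, 140 and 129 CPM against 199, 302 and 242 CPM. The groups did not overlap, and the sgCbfb libraries were more spread than the sgControl libraries in both. The log2 fold change was 0.96 ± 0.13 (limma adjusted P = 5e-05) and 0.94 ± 0.14 (2.2e-05).

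*Itga4*, the α4 chain, held 396, 359 and 299 CPM with sgControl and 567, 445 and 493 CPM with sgCbfb in experiment 1. Its log2 fold change of 0.51 ± 0.15 missed the threshold (limma adjusted P = 0.077, and 0.0003 without Phase 1 sgControl replicate 3, through the shared error). The gene passed there under 6 of 22 alternative settings, with limma adjusted P up to 0.35 under the others. In experiment 2 it held 349, 458 and 440 CPM against 609, 541 and 545 CPM, a log2 fold change of 0.45 ± 0.13 (0.018). The sgCbfb libraries were the higher ones in both, but the call was a near one. Without sgControl replicate 1 of experiment 2 the fold change was 0.33 (adjusted P = 0.16) and without sgCbfb replicate 1 it was 0.40 (0.091). Among the partner chains, *Itgb1* (0.32 ± 0.14 and 0.19 ± 0.12) did not pass in either experiment. *Itgb7* fell short of the threshold at the same size in both, −0.46 ± 0.17 (adjusted P = 0.19 and 0.08). With sgCbfb it held 58.5, 68.8 and 46.4 CPM against 82.6, 81.7 and 73.2 in experiment 1. In experiment 2 it held 37.3, 70.8 and 42.8 CPM against 66.5, 71.8 and 63.1, and the groups overlapped.

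*Itgal*, the αL chain of LFA-1, held 43.3, 41.1 and 39.4 CPM with sgControl and 68.3, 59.0 and 74.6 CPM with sgCbfb in experiment 2, and rose by 0.69 ± 0.14 (limma adjusted P = 0.00073). In experiment 1 it held 59.0, 52.6 and 37.9 CPM against 62.1, 74.6 and 61.4 CPM, a log2 fold change of 0.42 ± 0.18 (0.34). The groups were apart in both experiments. Its partner *Itgb2* gave −0.08 (95% interval −0.96 to 0.80) and −0.05 (−0.45 to 0.36). *Itgae* was at the counting floor, with 1 read over the 3 sgControl and 2 over the 3 sgCbfb libraries of experiment 1 and 4 and 0 reads in experiment 2, so no fold is given.

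Markers of other blood cells moved with sgCbfb. The 12 myeloid markers summed to 124 to 144 CPM in sgControl and 602 to 683 CPM in sgCbfb LPs of experiment 1, and to 131 to 141 CPM and 789 to 915 CPM in experiment 2. *Mrc1* and *F13a1* carried most of that rise, from 4.86 to 221 CPM and from 11.2 to 190 CPM in experiment 1, and *Fcgr3* rose too, from 36.2 to 82.9 CPM and from 38.0 to 76.9 CPM in experiment 2. *Ctsg* and *Elane* held 3 reads or fewer in every sgCbfb LP library of both experiments, and *Csf1r* and *Lyz2* did so in experiment 1 alone (1.58 and 3.85 CPM in experiment 2). *Mpo* rose in experiment 2, from 5.28 to 16.8 CPM. The T-progenitor markers summed to 401 to 457 CPM in sgControl and 255 to 308 CPM in sgCbfb LPs of experiment 1 and to 357 to 374 CPM and 127 to 158 CPM in experiment 2. The lower sum came from *Lck* and *Bcl11b*, which fell in both, and *Thy1*, which fell in experiment 2, while *Il2ra* (CD25) rose from 2.61 to 20.2 CPM and from 0.845 to 22.5 CPM, and the list's median log2 fold change was 0.23 in experiment 1 and −1.29 in experiment 2. The B-lineage markers summed to 313 to 431 CPM with sgControl and 239 to 273 CPM with sgCbfb in experiment 1. In experiment 2 they summed to 250 to 330 CPM and 237 to 280 CPM. Of them *Rag1* rose from 20.7 to 67.5 CPM and from 9.69 to 67.6 CPM. In that list 1 marker passed higher and 1 lower in experiment 1, and 2 higher and 2 lower in experiment 2. The lymphoid progenitor marker *Dntt* rose from 39.4 to 251 CPM and from 30.6 to 278 CPM. In its list 2 markers passed higher and 0 lower in experiment 1, and 4 higher and 4 lower in experiment 2. The erythroid marker *Hbb-bt* gave nearly all of an erythroid and megakaryocyte sum of 111 to 158 CPM with sgControl and 542 to 602 CPM with sgCbfb in experiment 1. The part of these cells or genes in the adhesion genes' changes was not tested.

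**Figure D2:**
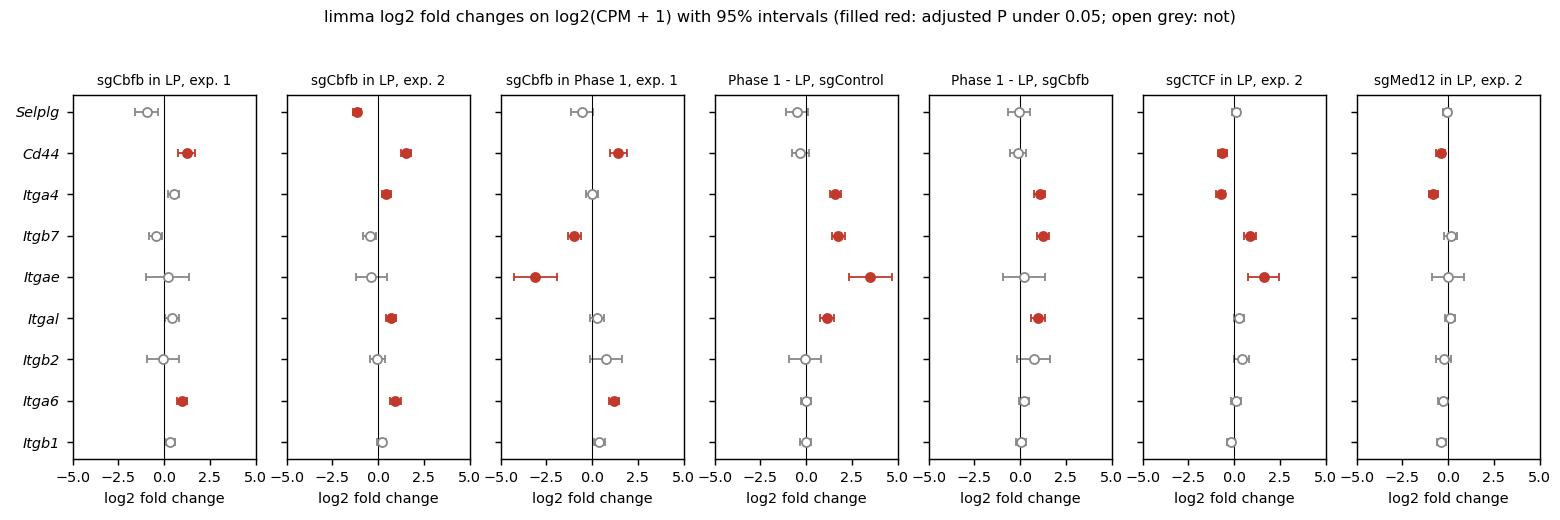
limma log2 fold changes on log2(CPM + 1) (horizontal axes) of the 9 genes in 7 comparisons, with 95% intervals, filled red where the adjusted P was under 0.05 and open grey where it was not. *Cd44* and *Itga6* lay to the right in all 3 sgCbfb comparisons, and *Itgae* lay at 3.49 with stage and at −3.10 with sgCbfb in Phase 1.

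The second comparison asked the same of Phase 1 cells, in which Notch signaling has begun. *Cd44* and *Itga6* rose with sgCbfb there too, by 2.53-fold and 2.31-fold. *Itgb7* fell to 0.505 of sgControl. *Itgae*, which entered the test only through sgControl Phase 1 cells, went from 55 reads over 3 sgControl libraries to 3 reads over 3 sgCbfb libraries. *Itga4*, at 0.966 of sgControl, did not pass.

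Of the 8 genes other than *Itgae*, 3 passed, where 5.97% of genes tested did, and *Cd44* and *Itga6* were also called by the study's thresholds, where 3.52% of genes were. The median of the 8 was 0.32, against 0.06 over all genes tested.

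*Cd44* held 106, 113 and 46.9 CPM in Phase 1 sgControl and 225, 219 and 229 CPM in Phase 1 sgCbfb libraries, a log2 fold change of 1.43 ± 0.22 (limma adjusted P = 0.00015). The groups were apart, and replicate 3 was the lowest sgControl library. Without that library the fold change was 1.03 (3e-07). *Itga6* held 173, 186 and 201 CPM against 472, 396 and 425 CPM, a log2 fold change of 1.20 ± 0.13 (1.3e-06), and 1.26 without replicate 3.

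*Itgb7* held 241, 246 and 323 CPM with sgControl and 138, 146 and 126 CPM with sgCbfb, and its log2 fold change was −0.97 ± 0.17 (limma adjusted P = 0.00058). *Itgae* held 26, 14 and 15 reads (9.03 to 18.4 CPM) with sgControl and 1.30, 0.628 and 0 CPM with sgCbfb. Its log2 fold change of −3.10 ± 0.56 is a description, because the gene entered the test only through these sgControl libraries. Every sgControl library was above every sgCbfb library for *Itgb7*, and also for *Itgae*, which was selected through those sgControl libraries. The sgControl level of *Itgae* was 20.5 times the sgCbfb level by summed reads, with a 95% counting interval of 6.64 to 102, which covers counting error only. With a pseudocount of 0.1 in place of 1 the *Itgae* value was −4.72 and did not pass, and without replicate 3 it was −3.17. The *Itgb7* value without replicate 3 was −0.83 (limma adjusted P = 0.00051).

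*Selplg* held 244, 219 and 68.2 CPM with sgControl and 112, 115 and 89.6 CPM with sgCbfb, and did not pass (−0.55 ± 0.29, limma adjusted P = 0.34). Replicate 3 of sgControl lay below all 3 sgCbfb libraries, while the other 2 lay above them. Without replicate 3 the fold change was −1.13 (1.4e-07), and with edgeR on all libraries it was −0.77 (0.03). *Selplg* passed under these 2 of 22 alternative settings only. *Itga4* gave −0.02 (95% interval −0.33 to 0.29), *Itgal* 0.25 (−0.13 to 0.62), *Itgb1* 0.39 (0.10 to 0.68, adjusted P = 0.12) and *Itgb2* 0.74 (−0.14 to 1.62), and none of them passed.

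In these libraries the myeloid markers summed to 49.1 to 60.0 CPM with sgControl and 449 to 485 CPM with sgCbfb, and the T-progenitor markers to 1868 to 2112 CPM and 545 to 582 CPM. *Ctsg*, *Elane* and *Lyz2* were at 3 reads or fewer per library in both groups. Of the T-progenitor markers 7 of 10 fell and 0 rose. The lymphoid progenitor markers summed to 1763 to 1810 CPM and 2154 to 2488 CPM, with 4 of 8 called higher, among them *Mef2c* (299 to 936 CPM), *Flt3* (36.1 to 98.5 CPM) and *Dntt* (5.11 to 55.5 CPM), and *Rag1* was called higher as well. Their part in the result was not tested.

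**Figure D3:**
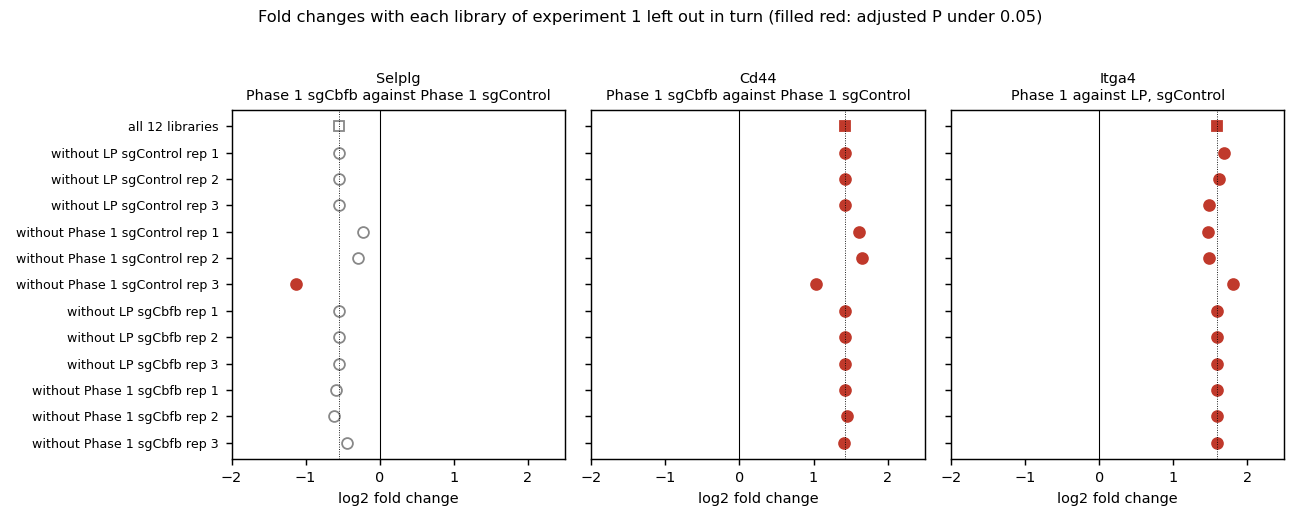
log2 fold changes (horizontal axes) of *Selplg*, *Cd44* and *Itga4* with each of the 12 libraries of experiment 1 left out in turn (vertical axis), filled red where the adjusted P was under 0.05. Leaving out Phase 1 sgControl replicate 3 moved *Selplg* from −0.55 to −1.13 and *Cd44* from 1.43 to 1.03, and no other library moved *Selplg* past the threshold.

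Whether the sgCbfb effect differed between the stages was tested as the interaction in the same fit. *Itgae* alone of the 9 passed, at −3.28 ± 0.80 (limma adjusted P = 0.042), where 1.27% of genes tested did, and it was also called (1.19%). It entered the test only through sgControl Phase 1 cells, and its sgCbfb effect was 0.19 in LPs, where it is at the floor, and −3.10 in Phase 1. The call did not hold up: it was lost when any 1 of 11 of the 12 libraries was left out, with adjusted P up to 0.15, and under 16 of all 21 alternative settings, with adjusted P up to 0.38. The median of the 8 other interactions was 0.13, against 0.06 over all genes.

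*Cd44* (0.20, 95% interval −0.44 to 0.84) and *Itga6* (0.25, −0.13 to 0.62) rose in both stages without a detected difference in size, and the intervals leave room for one. *Itga4* (−0.53 ± 0.21, limma adjusted P = 0.35) and *Itgb7* (−0.51 ± 0.24, 0.46) did not pass. Without Phase 1 sgControl replicate 3 the *Itga4* interaction was −0.76 (0.0011), and it passed under that 1 of 21 alternative settings only. The effects in the 2 stages use separate sgControl libraries.

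The next comparison asked which adhesion genes differ between Phase 1 cells and LPs. With sgControl, *Itga4* was 3.07-fold, *Itgb7* 3.42-fold and *Itgal* 2.21-fold higher in Phase 1. *Itgae* went from 1 read to 55 reads over 3 libraries, a description because it entered the test only through sgControl Phase 1 cells. With sgCbfb, *Itga4* (2.08-fold), *Itgb7* (2.36-fold) and *Itgal* (1.99-fold) rose too, and *Itgae* did not pass, at 2 and 3 reads. *Cd44*, *Itga6*, *Itgb1*, *Itgb2* and *Selplg* did not pass with stage in either background.

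Of the 8 genes other than *Itgae*, 3 passed with sgControl, where 6.48% of genes tested did, and the same 3 were called, where 3.39% were. With sgCbfb, 3 passed against 2.24% of genes tested, and *Itga4* and *Itgb7* were called against 1.19%. The medians of the 8 were −0.03 and 0.48, against −0.07 and −0.01 over all genes tested.

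*Itga4* held 396, 359 and 299 CPM in LPs and 1241, 1219 and 775 CPM in Phase 1 with sgControl, a log2 fold change of 1.59 ± 0.15 (limma adjusted P = 2e-07). With sgCbfb it held 567, 445 and 493 CPM in LPs and 1093, 1070 and 961 CPM in Phase 1, a log2 fold change of 1.06 ± 0.15 (0.00016). The stages did not overlap, and sgControl replicate 3 was the lowest Phase 1 library. Without it the first value was 1.81.

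*Itgb7* held 82.6, 81.7 and 73.2 CPM in LPs and 241, 246 and 323 CPM in Phase 1 with sgControl, a log2 fold change of 1.75 ± 0.17 (limma adjusted P = 2e-07). With sgCbfb it held 58.5, 68.8 and 46.4 CPM against 138, 146 and 126 CPM, 1.24 ± 0.17 (7.6e-05). Its level ran from sgControl Phase 1 (270 ± 46.0 CPM) over sgCbfb Phase 1 (137 ± 10.5) and sgControl LPs (79.2 ± 5.19) to sgCbfb LPs (57.9 ± 11.2). The last 2 neighbours did not differ by the test.

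*Itgae* was 3.49 ± 0.56 higher in Phase 1 with sgControl on the log2(CPM + 1) scale, which understates folds of low genes. The value is a description, because the gene entered the test only through the sgControl Phase 1 libraries. By summed reads its level in sgControl Phase 1 cells was 61.8 times that in sgControl LPs, with a 95% counting interval of 10.6 to 2490 around a single read. With sgCbfb the stage difference was 0.21 (95% interval −0.96 to 1.38).

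*Itgal* held 104, 105 and 122 CPM in sgControl Phase 1 cells against 59.0, 52.6 and 37.9 CPM in sgControl LPs, a log2 fold change of 1.15 ± 0.18 (limma adjusted P = 0.00021). With sgCbfb it held 147, 128 and 118 CPM in Phase 1 against 62.1, 74.6 and 61.4 CPM in LPs, 0.98 ± 0.18 (0.0026). Its partner *Itgb2* was widely spread, at 39.0, 31.0 and 14.8 CPM in sgControl LPs and 44.5, 32.3 and 10.3 CPM in sgControl Phase 1 cells (−0.08, 95% interval −0.96 to 0.80). *Itgb1* moved least of the 9, with group means between 156 and 202 CPM in experiment 1 and a range of 0.39 on the log2 scale. *Cd44* gave −0.31 (−0.77 to 0.14) and *Selplg* −0.49 (−1.10 to 0.11) with sgControl, and both were at 0.09 without Phase 1 replicate 3.

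T-progenitor markers were higher in Phase 1 (1868 to 2112 CPM summed) than in LPs (401 to 457 CPM) with sgControl, with all 10 markers passing, and less so with sgCbfb (545 to 582 against 255 to 308 CPM), with 4 passing. Of the erythroid and megakaryocyte markers *Hbb-bt* gave nearly all of the sum, which was 111 to 158 CPM in sgControl LPs and 1550 to 1590 CPM in sgControl Phase 1 cells, and *Klf1*, *Hba-a1*, *Pf4* and *Epor* held 3 reads or fewer per library. The lymphoid progenitor markers were lower in Phase 1 (1763 to 1810 CPM) than in LPs (2518 to 2972 CPM) with sgControl, with *Flt3* going from 273 to 36.1 CPM, 4 of 8 falling and *Kit* rising. The myeloid markers summed to 124 to 144 CPM in LPs and 49.1 to 60.0 CPM in Phase 1, with 3 called lower. Of the 10 B-lineage markers 4 to 7 were at 3 reads or fewer per library in each group of both experiments, *Cd79a* and *Vpreb3* in all of them. Their part in the result was not tested.

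**Figure D4:**
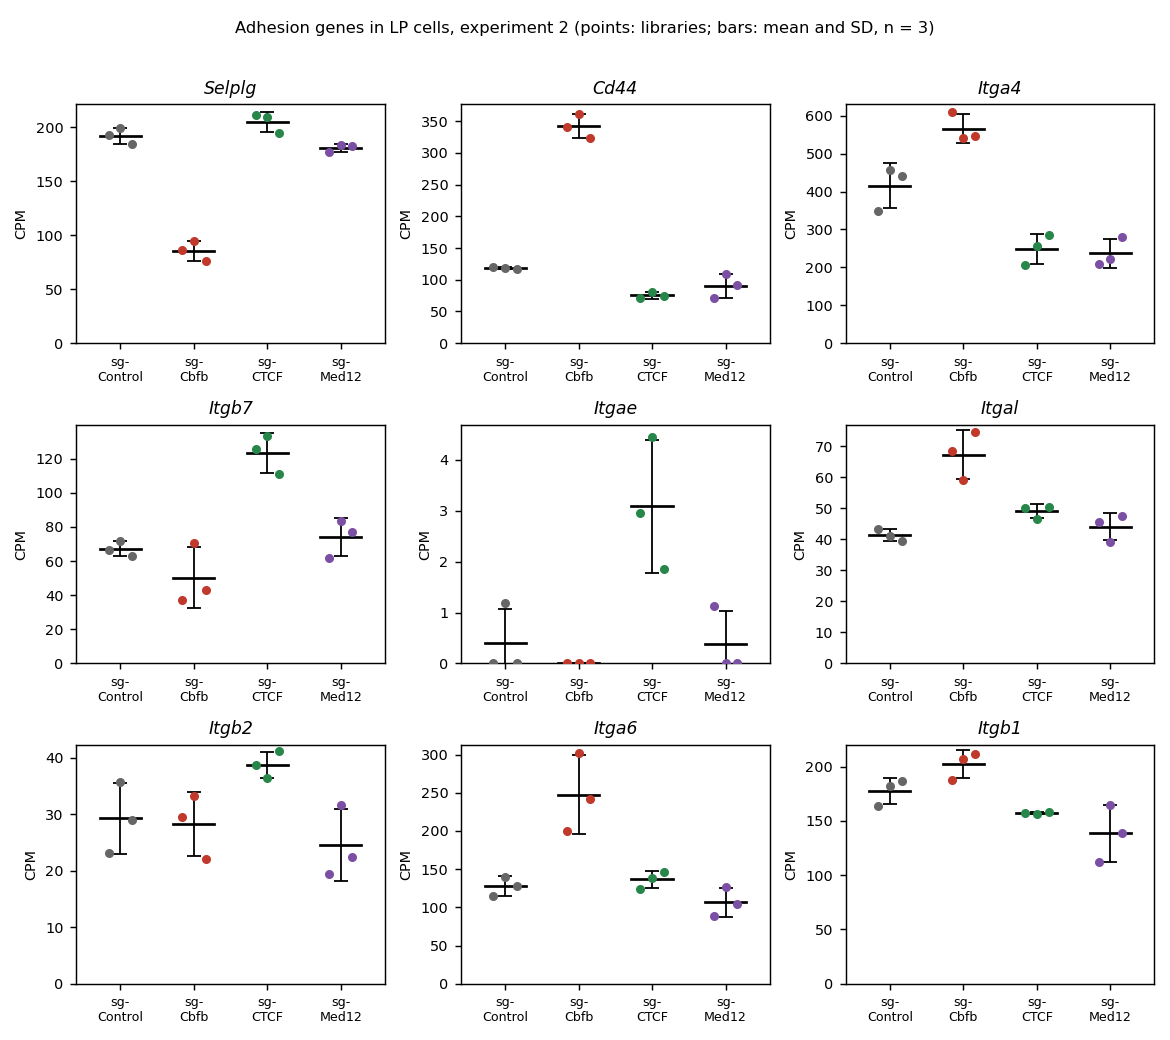
CPM (vertical axes, linear from 0) of the 9 genes in each LP library of experiment 2, with bars for the mean and SD of 3 libraries. *Cd44* ran from 324 to 362 CPM with sgCbfb and from 70.6 to 81.0 CPM with sgCTCF, on either side of sgControl at 117 to 121 CPM.

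Experiment 2 asked whether loss of CTCF or Med12 in LPs resembles loss of CBFβ. *Cd44* fell with sgCTCF to 0.636 of sgControl, where it rose with sgCbfb, and *Itga4*, which also rose with sgCbfb, fell with sgCTCF and sgMed12 to 0.598 and 0.570. With sgMed12 *Cd44* was at 0.762, a call that most alternative settings lost. With sgCTCF *Itgb7* rose by 1.84-fold. *Itgae*, which entered the test through sgCTCF alone, went from 4 to 35 reads over 3 libraries. These comparisons share the sgControl libraries, so the values stand side by side and no overlap between them is given.

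With sgCTCF 4 of the 9 passed, or 3 of 8 without *Itgae*, where 10.3% of genes tested did, and with sgMed12 2 passed, where 7.22% did. None was called by the study's thresholds, which 2.43% and 1.03% of genes met. At an unadjusted limma P under 0.05 the counts were 5 and 3 of the 9, with *Itgb2* and *Itgb1* added, and the count test of edgeR passed 3 and 1. The medians of the 9 were 0.10 and −0.25, against −0.02 over all genes in both.

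*Cd44* held 70.6, 81.0 and 74.9 CPM with sgCTCF, all below sgControl at 121, 118 and 117 CPM, a log2 fold change of −0.65 ± 0.13 (limma adjusted P = 0.001). With sgMed12 it held 70.6, 109 and 91.1 CPM, also all below sgControl, at −0.41 ± 0.13 (0.046). The sgMed12 call was lost under 18 of 22 alternative settings, and the sgCTCF call under 0 of 22. The order of *Cd44* was sgCbfb (342 ± 19.0 CPM), sgControl (119 ± 1.75), sgMed12 (90.3 ± 19.3) and sgCTCF (75.5 ± 5.25), and the last 2 did not differ by the test (0.24 for sgMed12 less sgCTCF, 95% interval −0.02 to 0.49).

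*Itga4* held 205, 256 and 285 CPM with sgCTCF and 208, 223 and 281 CPM with sgMed12, against 349, 458 and 440 CPM with sgControl. The log2 fold changes were −0.74 ± 0.13 (limma adjusted P = 3e-04) and −0.81 ± 0.13 (0.00062). Both groups lay below every sgControl library, and they did not differ from each other by the test (−0.07, 95% interval −0.33 to 0.20).

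*Itgb7* held 126, 133 and 111 CPM with sgCTCF against 66.5, 71.8 and 63.1 CPM with sgControl, a log2 fold change of 0.87 ± 0.17 (limma adjusted P = 0.0012). With sgMed12 it held 61.6, 83.4 and 76.9 CPM (0.13, 95% interval −0.22 to 0.48). *Itgae* held 2.95, 4.46 and 1.85 CPM with sgCTCF (11, 16 and 8 reads) and 0, 1.18 and 0 CPM with sgControl. Its log2 fold change of 1.61 ± 0.42 is a description, because the gene entered the test through sgCTCF alone. *Itgb7* was above sgControl in every sgCTCF library, and so was *Itgae*, which was selected through those libraries. By summed reads the *Itgae* level with sgCTCF was 8.48 times that with sgControl (95% counting interval 3.03 to 32.8), and its call was lost in 7 of 21 alternative settings. The stroma markers summed to 20.6 to 34.3 CPM with sgCTCF and 5.61 to 31.1 CPM with sgControl, the myeloid markers to 148 to 166 CPM and 131 to 141 CPM, and the T-progenitor markers to 406 to 435 CPM and 357 to 374 CPM. Within these sums *Tcf7* rose from 2.54 to 18.0 CPM, *Hes1* from 2.35 to 15.2 CPM and *Fcgr3* from 38.0 to 80.9 CPM with sgCTCF. Of the myeloid markers 1 passed higher and 2 lower, with a list median log2 fold change of −0.49. The B-lineage markers summed to 215 to 245 CPM with sgCTCF and 250 to 330 CPM with sgControl. Of them *Blnk* (0.633 to 13.7 CPM) and *Pax5* (8.58 to 22.0 CPM) rose and 1 passed lower, with a list median of −0.16. With sgMed12 the lymphoid progenitor markers summed to 1732 to 1944 CPM, against 2278 to 2598 CPM with sgControl, with *Dntt* falling from 30.6 to 10.1 CPM, and the T-progenitor markers to 454 to 507 CPM, with *Hes1* rising to 15.7 CPM. Their part in the result was not tested.

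*Selplg* was 211, 209 and 194 CPM with sgCTCF and 177, 183 and 183 CPM with sgMed12, against 193, 199 and 184 CPM with sgControl, with log2 fold changes of 0.09 (95% interval −0.12 to 0.31) and −0.08 (−0.30 to 0.13). *Itga6* (0.10 and −0.27), *Itgal* (0.24 and 0.09) and *Itgb2* (0.41 and −0.26) did not pass with either guide. *Itgb1* held 112, 164 and 139 CPM with sgMed12 against 164, 182 and 187 CPM with sgControl, short of the threshold at −0.37 ± 0.12 (limma adjusted P = 0.054). The sgMed12 libraries resembled each other less (mean r 0.97) than those of the other groups (0.98), and mitochondrial reads made up 8.44% to 13.66% of theirs. Without sgMed12 replicate 2 *Itgb1* was at −0.51 (0.00068) and *Itga6* at −0.41 (0.022). *Itgb1* passed under 3 and *Itga6* under 1 of 22 alternative settings.

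Set against sgCbfb directly, 8 of the 9 genes passed with sgCTCF (7 of 8 without *Itgae*), where 22.3% of genes tested did, and 7 with sgMed12, where 16.8% did. *Cd44*, *Selplg*, *Itga4* and *Itgb7* were called between sgCTCF and sgCbfb (6.87% of genes) and *Cd44*, *Selplg*, *Itga4* and *Itga6* between sgMed12 and sgCbfb (4.48%). The log2 difference of sgCTCF from sgCbfb was −2.17 ± 0.13 for *Cd44* and 1.33 ± 0.17 for *Itgb7*. *Selplg* was higher by 1.25 ± 0.10 with sgCTCF and by 1.08 ± 0.10 with sgMed12 than with sgCbfb. *Itgae* was at 0 reads in all 3 sgCbfb libraries, against 35 with sgCTCF. With a floor of 3 reads put in place of 0 the sgCTCF level was 11.1 times higher, and the 95% counting interval of the ratio starts at 8.54. These values are a description, because *Itgae* entered the test through sgCTCF alone.

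Between sgMed12 and sgCTCF 3 of the 9 passed (2 of 8 without *Itgae*), where 20.0% of genes tested did, and 0 were called (4.01% of genes). *Itgb7* (−0.74 ± 0.17, limma adjusted P = 0.0033) and *Itgb2* (−0.67 ± 0.20, 0.019) were lower with sgMed12. *Itgae* was lower too, at −1.62 ± 0.42, a description because it entered the test through sgCTCF alone. *Itgb2*, which passed in none of the comparisons with sgControl, held 38.6, 36.5 and 41.1 CPM with sgCTCF and 19.5, 31.7 and 22.4 CPM with sgMed12.

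The genes around these receptors were read from 5 lists: other integrin subunits, integrin activation, integrin ligands, selectins and the synthesis of their ligands, and partners of CD44. They held 11, 24, 5, 16 and 9 tested genes in experiment 1 and 11, 24, 9, 15 and 9 in experiment 2. With sgCbfb in LPs of experiment 1, 8 genes of the 5 lists passed, where 2.85% of all genes tested did. In LPs of experiment 2 it was 18, where 12.5% of all genes did, and in Phase 1 it was 17, where 5.97% did. The list medians lay between −0.23 and 0.12 in the 3 comparisons, near those of all genes (−0.01 to 0.06).

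Among other integrin subunits, *Itgb5* (β5) rose in sgCbfb LPs from 1.04 to 10.9 CPM in experiment 1 (2.67 ± 0.57, limma adjusted P = 0.0078) and from 1.91 to 13.8 CPM in experiment 2 (2.33 ± 0.37, 4.5e-05). *Itgax* (αX, CD11c), another β2 partner, fell, from 5.02 CPM to 0 reads in experiment 1 and from 7.16 to 0.262 CPM in experiment 2. In Phase 1 *Itgax* fell from 43.9 to 5.60 CPM (−2.76 ± 0.53, 0.0017), *Itgb3* (β3) from 35.8 to 12.8 CPM (−1.41 ± 0.41, 0.042), and *Itga9* (α9) rose from 1.32 to 22.6 CPM (3.57 ± 0.59, 0.00037). The sgControl Phase 1 libraries held 0 to 5 reads of *Itga9*, and the sgControl LP libraries of experiment 1 held 0 to 4 reads of *Itgb5*. The size of those values therefore depends on the pseudocount of 1. *Itgb3* also fell in LPs of experiment 2, from 13.8 to 5.44 CPM (−1.25 ± 0.27, limma adjusted P = 0.0015). The remaining passing subunits were *Itgav* in LPs of experiment 2 and *Itgb4*, each lower, and *Itgb5* in Phase 1, higher. They and the *Itgax* values in LPs were chosen after their values were seen.

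Among the genes of integrin activation, which link the inner tail of an integrin to Rap1 and the cytoskeleton, none of 24 passed with sgCbfb in LPs of experiment 1 (limma; 3 had an unadjusted P under 0.05, and edgeR passed 0). In LPs of experiment 2, 3 rose and 2 fell, with *Ptk2* (the focal adhesion kinase) going from 2.16 to 19.8 CPM (2.85 ± 0.34, limma adjusted P = 8.3e-07). In Phase 1, the adaptor *Fyb* fell from 199.5 to 60.4 CPM (−1.71 ± 0.17, 8.4e-07) and *Vcl* (vinculin) rose from 5.96 to 17.8 CPM (1.55 ± 0.43, 0.031). The ligand list was led by *Cdh1*, the E-cadherin that αEβ7 binds. *Cdh1* fell with sgCbfb from 19.2 to 0.711 CPM in LPs of experiment 1 (−3.63 ± 0.32, 1.8e-07), from 18.4 to 0.665 CPM in experiment 2 (−3.44 ± 0.33, 2e-08) and from 205 to 70.7 CPM in Phase 1 (−1.51 ± 0.32, 0.0042). In the sgCbfb LPs *Cdh1* was at the level of a few reads, so the size of the first 2 values depends on the pseudocount of 1.

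In the selectin list, which holds *Selplg*'s glycosylating enzymes, *Cd34* rose and *Cd24a* and *Spn* (CD43) fell with sgCbfb in all 3 comparisons. *Cd34*, which like *Spn* falls outside the naming rule in part of them and was then chosen after its values were seen, stood at 260 and 526 CPM in LPs of experiment 1 (1.02 ± 0.12, limma adjusted P = 8.7e-06) and at 163 and 434 CPM in Phase 1 (1.41 ± 0.12, 4.4e-08). *Cd24a*, a P-selectin ligand, stood at 53.7 and 21.5 CPM (−1.28 ± 0.22, 0.0012) and at 122 and 39.8 CPM (−1.58 ± 0.22, 6.7e-05). *St3gal6*, a sialyltransferase that caps selectin ligands, fell in LPs of both experiments (−1.90 ± 0.49, 0.036, and −1.61 ± 0.25, 3.2e-05). In Phase 1 *Fut7*, the fucosyltransferase of selectin ligands, fell from 31.9 to 6.09 CPM (−2.29 ± 0.48, 0.0042). *Tpst1*, which sulfates tyrosines of PSGL-1, rose in Phase 1 (1.96 ± 0.58, 0.049) and in LPs of experiment 2 (1.74 ± 0.27, 3e-05). Among CD44's partners *Ezr* (ezrin), which ties CD44 to actin, fell in all 3 comparisons (−0.72 ± 0.12, −1.02 ± 0.10 and −0.62 ± 0.12), where *Cd44* itself rose.

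**Figure D5:**
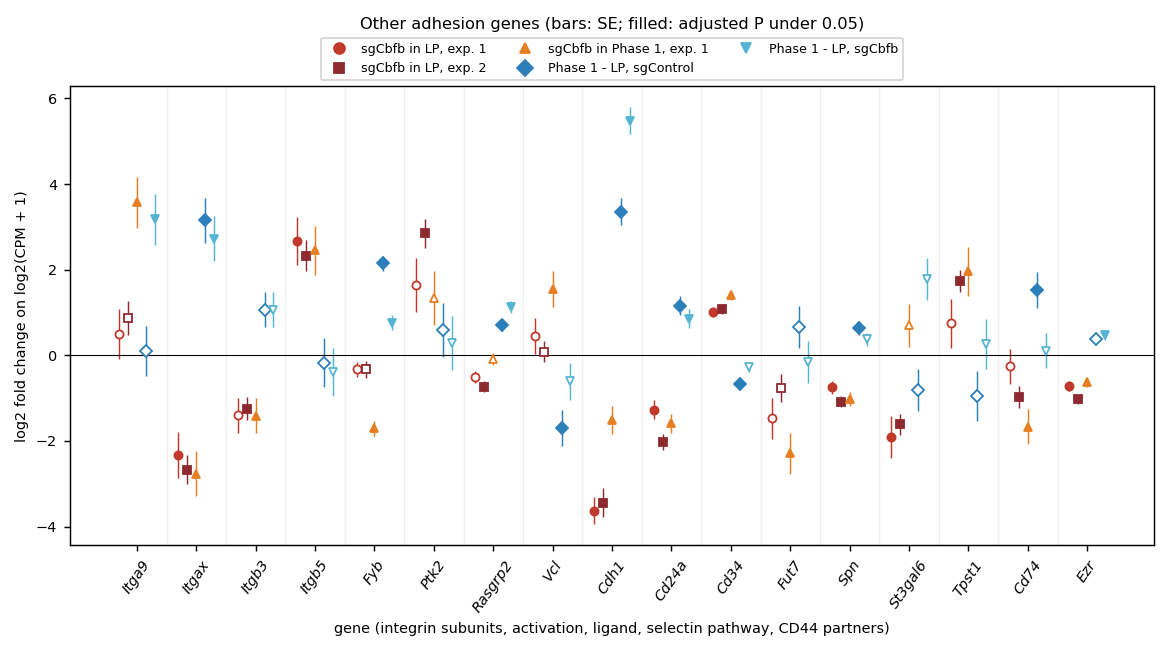
limma log2 fold changes on log2(CPM + 1) with SE bars (vertical axis) of 17 genes from the 5 lists (horizontal axis) in 5 comparisons, filled where the adjusted P was under 0.05. *Cdh1* lay at −3.63 and −3.44 with sgCbfb in LPs and at 3.36 and 5.48 with stage, and *Cd34* above 1 in all 3 sgCbfb comparisons.

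With stage, 14 genes of the 5 lists passed in sgControl cells, where 6.48% of all genes tested did, and 10 in sgCbfb cells, where 2.24% did. *Cdh1* rose from 19.2 to 205 CPM (3.36 ± 0.32, limma adjusted P = 1.8e-07), *Itgax* from 5.02 to 43.9 CPM (3.15 ± 0.53, 0.00039) and *Fyb* from 44.3 to 199.5 CPM (2.15 ± 0.17, 1.8e-08). *Cd24a* (1.16 ± 0.22, 0.0017) and *Cd74* (1.53 ± 0.41, 0.026), a partner of CD44, rose as well, and *Vcl* fell (−1.70 ± 0.43, 0.016). In sgCbfb cells *Cdh1* (5.48 ± 0.32), *Itga9* (3.17 ± 0.59) and *Rasgrp2* (1.14 ± 0.14), an activator of Rap1, were among the called genes. The sgCbfb LP libraries held at most 2 reads of *Cdh1* and 5 of *Itga9*, so the size of those values depends on the pseudocount of 1. The list medians lay between −0.04 and 0.25, against −0.07 and −0.01 over all genes.

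With sgCTCF 16 genes of the 5 lists passed, where 10.3% of all genes tested did, and 2 were called, where 2.43% were. The 2 were *Cdh1*, which rose from 18.4 to 106 CPM (2.64 ± 0.33, limma adjusted P = 6.3e-06), and *Cd74*, from 15.6 to 33.4 CPM (1.09 ± 0.25, 0.0051). With sgMed12 7 passed, where 7.22% of all genes did, and 0 were called, where 1.03% were. Among the 7 were *B4galt1* (−0.82 ± 0.12, 0.00034), *Parvg* (−0.92 ± 0.15, 0.00063) and *Cd34* (0.50 ± 0.11, 0.011), which were chosen after their values were seen. *Cdh1* and *Itgb7* rose with the same guide, and a link between them was not tested. *Itgae* entered that test through sgCTCF alone. The list medians were between −0.11 and 0.52 with sgCTCF and between −0.26 and 0.18 with sgMed12, against −0.02 over all genes.

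The range of group means was widest for *Itgae* in experiment 1 (3.49 on the log2 scale) and for *Cd44* in experiment 2 (2.17), and the genes with the nearest pattern over the 4 group means were looked up for both. Distances are Euclidean, on log2(CPM + 1) after centring on sgControl LPs. For *Itgae*, among 8999 genes, they were *Fam20a* (0.27), *Ccl5* (0.28) and *Trim30c* (0.35). *Fam20a* held 0.41 CPM in sgControl LPs, 16.6 in sgControl Phase 1 cells and 0.82 in sgCbfb Phase 1 cells. For *Cd44*, among 8913 genes, they were *Reep5* (0.10), *Tbc1d4* (0.22) and *Trim34a* (0.26), and *Reep5* held 233 CPM with sgControl, 679 with sgCbfb, 139 with sgCTCF and 179 with sgMed12.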

How the data were processed

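QuantSeq 3′ mRNA libraries of 24 samples were analysed, 3 per group, which the study calls biologically independent. Per the labels and methods, the authors trimmed reads with fastp and mapped them to mm10 with STAR; versions, the counting tool, its strand setting and its annotation are not given in the sources used here. The authors deposited 1 value per gene and library named TPM, which are CPM: each value is a multiple of what 1 read is worth in its library, long genes and short alike, and 99.99% to 100% came out whole within 0.1 read. One line per table without a gene name held the value of 1 read and was left out.

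Genes that reached 1 CPM in 3 or more libraries of an experiment were fitted with limma 3.58.1 (R 4.3.3) on log2(CPM + 1), all 4 groups in one fit with a variance trend, and Benjamini-Hochberg adjustment over all genes tested. A gene passed at an adjusted P under 0.05 and was called with an absolute log2 ratio of means over 1 and a mean over 10 CPM (interactions: no ratio). edgeR 4.0.16 on the recovered reads was an alternative. The fit was also run on simulated counts with the same spread setting for all genes. Changes were placed there only in genes with a mean over 10 CPM. That run does not cover genes at the floor, such as *Itgae*, or a library that stands apart from its group.

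The 9 genes are always named. From each other list (other integrin subunits, activation, ligands, selectins, CD44 partners, markers of stroma, myeloid, B, T-progenitor, lymphoid progenitor and erythroid cells) at most 4 called genes with the largest change per comparison were named, and a few results are not reported here. Members and lists were chosen with earlier results of these data known. Alternatives were pseudocounts of 0.1 and 5, filters, scalings, 2 groups only, a replicate block, unmoderated tests, edgeR, the study's thresholds and leaving out each library. Intervals on read ratios cover counting error only, as reads without molecular identifiers are not independent molecules.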

Additional observations from a re-analysis of the deposited data

Results flagged for a closer look

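The effect of sgCbfb on *Itgae*, which encodes αE (CD103), differed between Phase 1 cells and LPs by −3.28 ± 0.80 on the log2(CPM + 1) scale (interaction in limma, adjusted P = 0.042). *Itgae* met the filter on low values only through the sgControl Phase 1 libraries, so the interaction is a description. All 3 sgCbfb libraries of Phase 1 lay below all 3 sgControl libraries, the group it was selected through. In LPs both groups were at the counting floor, with 1 and 2 reads over 3 libraries. The call was lost under 16 of 21 alternative settings, with adjusted P between 0.0053 and 0.38 and values between −5.08 and −1.69. Single libraries were not tested as outliers, because groups of 3 are too small for that test.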

How the results depend on the processing

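Of the 99 pairs of a gene and a comparison, 43 passed, of which 29 kept the call under each of the 20 to 22 alternatives and 14 lost it under at least 1. Of the 56 others, 11 gained a call under at least 1 alternative, and 21 changed sign without a call in either fit; 0 calls reversed. These counts include *Itgae*, which met the filter only through its high groups. Its calls for stage with sgControl and for sgCTCF against sgCbfb are among those kept, and remain a description. The number of the 9 genes that passed moved by more than 1.5 times as follows, and the causes were not tested. It moved by 1 gene, within 1.5 times, in 21 more cases with alternative fits that keep all libraries. The study's thresholds also left 3 of 4 for sgCbfb in Phase 1 and 2 of 3 for stage with sgCbfb. For sgCbfb in LPs of experiment 1, 2 became 4 with the 2 groups fitted alone, 4 with a replicate block, 4 with edgeR, 1 without moderated variances and 1 with the study's thresholds. For the interaction, 1 became 0 with a pseudocount of 0.1, without the filter, with a filter on a mean over 10 CPM, without moderation and with edgeR. For sgMed12 against sgControl, 2 became 1 with a pseudocount of 0.1, without the filter, with median-of-ratios scaling, with totals that leave out mitochondrial genes and the most abundant gene, with 2 groups alone and with edgeR, and 0 without moderation or with the study's thresholds. For sgCTCF against sgControl, 4 became 2 without moderation and 0 with the study's thresholds, and for sgMed12 against sgCTCF 3 became 1 and 0. The study's thresholds left 2 of 5 for sgCbfb in LPs of experiment 2, 4 of 8 for sgCTCF against sgCbfb and 4 of 7 for sgMed12 against sgCbfb.

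Leaving out single libraries gave counts that ranged from 2 to 4 for sgCbfb in LPs of experiment 1, 4 to 6 in experiment 2, 4 to 5 in Phase 1, 0 to 2 for the interaction, 3 to 4 for sgCTCF, 1 to 4 for sgMed12, 6 to 9 for sgCTCF against sgCbfb, 2 to 5 for sgMed12 against sgCTCF and 6 to 7 for sgMed12 against sgCbfb, and stayed at 4 and 3 for stage with sgControl and sgCbfb. Deviations of libraries with the same replicate number correlated weakly (r of −0.011 to 0.102 in experiment 1 and −0.063 to 0.111 in experiment 2, over 0.1 in 1 and 2 of 18 pairs). In each experiment 8 of 12 libraries were closest to their own number, a hint of pairing from the data that the labels do not give, so the samples were not taken as paired. With the replicate block, 6 genes passed for sgCbfb in LPs of experiment 2, 3 for sgMed12 and 4 for sgMed12 against sgCTCF, and the counts of the other comparisons but the first did not change. At 3 reads per library, 1.72 to 2.20 CPM in experiment 1, *Itgae* can be read only where it is high, and the counts in this section include it.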
